A study of Mus musculus with 125 samples.

Results

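A small group of barcodes with the transcripts of mast cells was found among cells isolated from the embryonic mouse brain at day 12.5 (E12.5). The group was chosen by 3 genes: a barcode had to hold at least 2 molecules of Cpa3, at least 1 of Cma1 or Ifitm1, and none of Cdh5, the endothelial cadherin. Molecules are counted as unique molecular identifiers (UMIs). It also had to detect at least 200 genes and carry at most 10% of its UMIs from mitochondrial genes. These conditions held for 114 of the 8248 barcodes that passed the gene and mitochondrial limits, a share of 1.38% (exact 95% binomial interval 1.14 to 1.66), out of 8310 barcodes in the library. The interval, like all intervals given here, covers counting error only.

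Mast cells are blood-derived cells of tissues that store histamine, proteases and the proteoglycan serglycin in large granules, which they release when the IgE receptor or other receptors are triggered. They depend on the receptor tyrosine kinase Kit and on the transcription factors Gata2 and Mitf. In the embryo the first mast cells arise from progenitors of the yolk sac, and in and around the brain they are known mainly from the meninges and other perivascular sites. Basophils share Gata2, histamine and the IgE receptor with them, but are known for the proteases Mcpt8 and Prss34.

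The series profiles endothelial cells of the mouse brain over development by single-cell RNA sequencing, together with bulk assays that were not used here. The E12.5 library was made from dissected embryonic brain that was digested with collagenase, enriched on beads against the endothelial surface protein CD31, and sequenced after 10x 3′ capture. The labels give no strain, genotype, sex or number of pooled embryos, and there was 1 library at this age. Since CD31 enrichment decides which cells are in the library, shares of barcodes are shares after that selection and not shares of cells in the brain.

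With 1 library there is no replicate, so no test was made, and differences between classes of barcodes are given as levels with counting intervals. The main comparison class, called macrophage-like here, held 930 barcodes (11.3%, 10.60 to 11.98) that detected at least 3 of Csf1r, C1qa, C1qb, C1qc and Aif1 and no Cpa3. A further 4864 barcodes formed an endothelial class with at least 2 UMIs of Cdh5, at least 1 of Pecam1 and no Cpa3. They also detected fewer than 3 of the genes of the macrophage-like rule and held at most 20% haemoglobin UMIs. Another 327 barcodes with over 20% haemoglobin UMIs and no Cpa3 or Cdh5 formed an erythroid class. Of the erythroid barcodes, 6 also met the macrophage-like rule. None of the 114 was in another class, since these classes exclude Cpa3, but 1 member held 40.7% haemoglobin UMIs. Macrophage-like barcodes were not required to lack Cdh5, and 112 of the 930 held 2 or more of its UMIs. The mast-like barcodes held a median of 6588.5 UMIs (lowest 4099, highest 22190) and 2262.5 genes, against 7928 UMIs and 2492.5 genes in macrophage-like and 11501 UMIs and 3461 genes in endothelial barcodes. The median mitochondrial share was 3.51%, 3.42% and 3.81% in these 3 classes. Levels are UMIs summed over the barcodes of a class and scaled to a total of 1000000 (CPM), and a gene was called different when its level differed at least 4-fold and reached 50 CPM in the higher class. Shares of barcodes with a UMI were also computed after thinning each barcode to 2000 UMIs, which removes the difference in depth between classes.

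Cpa3 and Cma1, the genes of 2 granule proteases that chose the cells, and Il13, a cytokine gene that the choice did not use, are shown here by the 250 bases that precede their RefSeq start sites (mouse GRCm38.p6, minus strand, 5′ to 3′), because they were among the first 4 genes when those with at least 200 CPM, read in at least 25% of members, were ranked by the smallest of their ratios to the other classes. Capitals mark letters that match a GATA motif, the recognition sequence of factors such as Gata1 and Gata2. The motif was searched on both strands as AGATAA and as its variants that begin with T, that end with G, or both. The Cpa3 window lies at chr3:20242182-20242431, the Cma1 window at chr14:55944676-55944925 and the Il13 window at chr11:53634703-53634952.
Cpa3: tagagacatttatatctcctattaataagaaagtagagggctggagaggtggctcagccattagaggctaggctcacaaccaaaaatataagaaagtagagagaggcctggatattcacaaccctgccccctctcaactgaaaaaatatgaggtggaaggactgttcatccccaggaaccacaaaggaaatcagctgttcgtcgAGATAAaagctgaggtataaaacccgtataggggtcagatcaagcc
Cma1: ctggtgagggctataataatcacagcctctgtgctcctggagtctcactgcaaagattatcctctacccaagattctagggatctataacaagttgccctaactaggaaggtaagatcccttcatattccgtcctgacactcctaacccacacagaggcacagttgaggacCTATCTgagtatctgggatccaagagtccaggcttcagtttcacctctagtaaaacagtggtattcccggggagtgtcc
Il13: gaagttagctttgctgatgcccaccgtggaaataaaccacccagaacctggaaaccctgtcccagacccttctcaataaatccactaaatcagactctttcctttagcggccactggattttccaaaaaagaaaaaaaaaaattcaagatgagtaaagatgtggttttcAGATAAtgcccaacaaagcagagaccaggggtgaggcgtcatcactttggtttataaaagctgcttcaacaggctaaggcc
Each window holds 1 match, whose last base lies 41 bases (Cpa3), 74 bases (Cma1) and 76 bases (Il13) before the start. Hdc, the other of the first 4 genes, also has a window with 1 match, which is not shown. The nearest 28 bases of the Cpa3 window lie within the annotated gene, since another of its transcripts starts upstream. Of 32851 such windows of 27025 mouse genes, 26.5% hold at least 1 match. Among the 25 genes with the highest ratio to macrophage-like barcodes, 18 had windows, and 6 of their 25 windows (24%) held a match, which is close to the share of all windows. A match in letters is a description and not a binding site.

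The 3 choosing genes set the group apart by construction. Cpa3, a carboxypeptidase of mast-cell granules on chromosome 3 (20215616-20242209), held from 2 to 193 UMIs per barcode with a median of 23.5, and 4384 CPM over the group. Cma1, a chymase on chromosome 14 (55941451-55944675), was read in 49 of 114 barcodes (43.0%), with 0 UMIs as its median, 226 as its highest count and 1228 CPM. Ifitm1, an interferon-induced membrane protein on chromosome 7 (140967429-140969827), was read in 107 barcodes (93.9%), with a median of 19.5 UMIs and 3857 CPM. The barcodes therefore mostly entered by Ifitm1: 65 held Ifitm1 without Cma1, 42 held both, and 7 held Cma1 without Ifitm1. Its neighbours in the same gene cluster did not share its level, with Ifitm2 at 618 CPM in mast-like and 198 in macrophage-like barcodes and Ifitm3 at 24.8 and 250 CPM.

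The histamine enzyme gene Hdc and the proteoglycan gene Srgn, which the choice did not use, were read in most members. Hdc, histidine decarboxylase, the enzyme that makes histamine, was present in 97 of 114 barcodes (85.1%, 77.2 to 91.1), with 0 to 44 UMIs and a median of 6. Its level was 937 CPM (95% Poisson interval 874 to 1003), against 0.678 in macrophage-like and 0.64 in endothelial barcodes, a ratio to the former of 1383 (632 to 3778). At equal depth 75.4% of mast-like barcodes, 0.108% of macrophage-like and 0.123% of endothelial barcodes had an Hdc UMI. Srgn, serglycin, the core protein to which granule heparin is bound, was read in 113 barcodes, with a median of 16.5 and a highest count of 110 UMIs. It stood at 2440 CPM (2338 to 2545) against 93.3 in macrophage-like and 65.4 in endothelial barcodes, which is 26.1-fold (24.1 to 28.4) the macrophage-like level. Beside Hdc and Srgn, the other genes called higher in this list were Maob, a monoamine oxidase (96.0 against 0.565 CPM), and 3 enzymes of heparin and heparan sulphate synthesis: Hs3st1 (204 against 13.1 CPM), Hs2st1 (96.0 against 21.9) and Ndst2 (53.1 against 12.3). Slc18a2, the vesicular monoamine transporter that loads histamine into granules, was read in 31 members at 37.3 CPM, below the 50 CPM limit, and in 3 macrophage-like UMIs, a ratio of 110 (34.5 to 560). Of the 15 genes in the amine and proteoglycan list, 6 reached 50 CPM in one of the classes and were called higher, 5 of them through mast-like barcodes alone, so their direction came with the limit. The other 9 were not tested. The background for these counts is that 132 of 3351 genes tested (3.94%) were called higher in mast-like than in macrophage-like barcodes and 277 (8.27%) lower. A gene that reached the limit in 1 class alone could be called in 1 direction only: 526 reached it in mast-like barcodes alone, 586 in macrophage-like barcodes alone and 2239 in both, of which 7 were called higher and 29 lower. Counts over the gene lists are therefore descriptions.

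**Figure D1:**
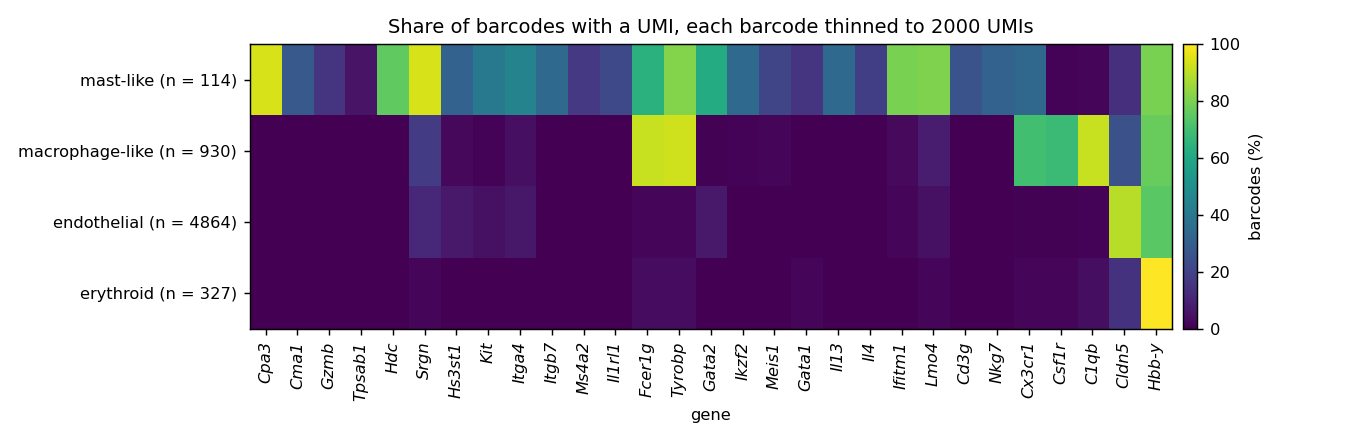
Share of barcodes with at least 1 UMI of 29 genes (columns) in the 4 classes (rows), after thinning every barcode to 2000 UMIs, with colour giving the percent. Hdc (75.4%), Srgn (93.9%) and Gata2 (61.4%) are found in most mast-like barcodes, while the macrophage-like row is at 0.108%, 17.8% and 0.538% for the same genes.

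Granule proteases beyond Cpa3 and Cma1 were concentrated in few barcodes. Gzmb, granzyme B, on chromosome 14 (56258836-56262334), was read in 26 members (22.8%, 15.5 to 31.6) at 176 CPM, and 1 barcode held 47.4% of its UMIs. A single UMI was found in macrophage-like barcodes, a ratio of 1559 (276 to 61971). Tpsab1, the alpha/beta tryptase gene on chromosome 17 (25343245-25345562), stood at 112 CPM, but its UMIs came from 6 members and 71 of the 99 from 1 of them. RefSeq lists Tpsab1 as a transcribed pseudogene in the reference strain. Mcpt2 (27.1 CPM in 4 members), Mcpt4 (15.8 in 3), Cma2 (10.2 in 7) and Tpsb2 (7.90 in 3) were below the limit of 50 CPM, and Mcpt9 and Tpsg1 were at 0. These proteases are known from connective-tissue and mucosal mast cells of later ages, and paralogues among them are similar enough that reads may be split between copies. Of the 13 proteases listed, Cpa3, Cma1, Gzmb and Tpsab1 reached 50 CPM, in mast-like barcodes alone, and 9 did not.

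Several receptors of mast cells were read in many members, while the IgE-binding chain was read in few. Kit, the receptor of stem cell factor, was read in 88 members (77.2%, 68.4 to 84.5), with 0 to 7 UMIs and a median of 2. Its level was 256 CPM (224 to 292), against 5.65 in macrophage-like and 25.9 in endothelial barcodes, 45.4-fold (33.3 to 62.9) the macrophage-like level. Its ligand Kitl was higher in the other 2 of these classes, at 100 CPM in endothelial and 24.4 in macrophage-like against 5.65 in mast-like barcodes. Ms4a2, the beta chain of the IgE receptor, was read in 50 members (43.9%, 34.6 to 53.5) with at most 8 UMIs, at 124 CPM (102 to 150). No macrophage-like UMI of Ms4a2 was read, so it was at least 366-fold higher against a floor of 3 UMIs over the class. The alpha chain Fcer1a, which binds IgE, was read in 4 members only, at 7.90 CPM. The gamma chain Fcer1g, which other Fc receptors also use, was lower than in macrophage-like barcodes, at 651 against 1515 CPM. Il1rl1, the receptor of interleukin 33, was read in 59 members (51.8%) with at most 4 UMIs, at 119 CPM, and its ratio to the 3 macrophage-like UMIs was 350 (116 to 1723).

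Several surface genes of mast cells and their progenitors belonged to the same list. Integrin genes Itga4 (247 against 23.0 CPM, 83 members) and Itgb7 (157 against 3.16 CPM, 70 members), which together form the homing integrin of mast-cell progenitors, were 10.7-fold and 49.6-fold higher. The early activation antigen Cd69 stood at 251 against 15.7 CPM and the adenosine receptor Adora3 at 102 against 8.47. Cd200r4, an activating receptor of the CD200 receptor family, was read in 10 members at 57.6 CPM, with 29.4% of its UMIs in 1 barcode, and in no macrophage-like barcode. Tetraspanin Cd63, a granule membrane protein, was 2.31-fold higher (1263 against 547 CPM), which is below the limit. Mrgprb1 and Mrgprb2, receptors of mature connective-tissue mast cells, were at 0 in all members. A count of 0 allows up to 3 UMIs over the group. Of the 26 receptors listed, 9 reached 50 CPM in mast-like barcodes alone, and 8 of these were called higher. None of the 3 that reached it in both classes was called, and 14 were not tested.

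Transcription factors of mast cells and their progenitors went in both directions. Gata2 was read in 102 members (89.5%, 82.3 to 94.4), with 0 to 15 UMIs and a median of 4. Its 540 CPM (492 to 590) compared with 4.86 in macrophage-like and 32.3 in endothelial barcodes, an 111-fold ratio (81.2 to 156) to the former. Gata1, which acts with Gata2 in mast cells, basophils, megakaryocytes and red cells, stood at 85.8 against 0.452 CPM and was read in 55 members. Ikzf2, the zinc-finger factor Helios, stood at 246 against 5.31 CPM in 88 members. The progenitor factors Meis1 (107 against 8.59 CPM), Meis2 (81.3 against 5.99) and Myb (86.9 against 3.95) and the factor Runx3 (51.9 against 6.78) were also called higher. Mitf, the factor of mature mast cells and melanocytes, stood at 42.9 against 16.3 CPM and did not reach 50 CPM. Irf8 (4.52 against 221 CPM), a monocyte and macrophage factor, Cebpa (7.90 against 50.6), a myeloid factor, and Lmo2 (31.6 against 178) were called lower. Spi1, the myeloid factor PU.1, was 3.32-fold lower at 108 against 360 CPM, short of the limit. Of the 30 factors listed, 8 reached 50 CPM in mast-like barcodes alone (7 called higher), 3 in macrophage-like barcodes alone (3 lower) and 4 in both (none called).

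Genes of lipid mediators went in both directions. Cyp11a1, the enzyme that opens steroid synthesis from cholesterol, was read in 39 members at 128 CPM and in no macrophage-like barcode, so it was at least 376-fold higher. Its electron donor Fdx1 stood at 177 against 43.7 CPM, a 4.05-fold ratio (log2 2.02) that was below the limit when barcodes were thinned (log2 1.53), without the barcode with most of its UMIs (1.97) and without members that held Mcpt8 or Prss34 (1.95). Star, which brings cholesterol to that enzyme, was at 0. Alox5, which starts leukotriene synthesis, was 9.70-fold higher (74.5 against 7.68 CPM). Its partner Alox5ap stood at 238 against 165 CPM. The prostaglandin synthase Hpgds (12.4 against 299 CPM), the cyclooxygenase Ptgs1 (19.2 against 142) and the leukotriene C4 synthase Ltc4s, with 1 UMI against 52.3 CPM, were lower. The 3 called higher reached 50 CPM in mast-like barcodes alone and the 3 called lower in macrophage-like barcodes alone.

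Cytokine genes of type 2 immunity were read in many members. Il13 was read in 67 of 114 barcodes (58.8%, 49.2 to 67.9), with 0 to 11 UMIs and a median of 1. Its level was 252 CPM (220 to 287), and the 3 UMIs in macrophage-like barcodes gave a ratio of 743 (251 to 3630). Its neighbour on chromosome 11, Il4, was read in 49 members (43.0%) with at most 4 UMIs, at 80.2 CPM, and in 2 macrophage-like UMIs. Il6 was read in 21 members at 48.5 CPM, just below the limit. Ccl5 stood at 265 CPM, but it was read in 8 members and 1 of them held 58.3% of its UMIs. Several chemokines of macrophages were low, with Ccl3 at 63.2 against 603 CPM and Ccl4 at 56.5 against 786. Ccl3 was read in 7 and Ccl4 in 6 members, with 37.5% and 58% of their UMIs in 1 barcode. Ccl2, Ccl7 and Igf1 were at 0 in mast-like barcodes against 163, 57.3 and 64.1 CPM. Ccl9 was not low, at 131 against 150 CPM. The inflammatory cytokine gene Osm (55.3 against 6.89 CPM) was read in 11 members and was below 4-fold without the members that held Mpo (log2 1.17) or those with Mcpt8 or Prss34 (1.62). In the cytokine and growth factor list, 3 genes reached 50 CPM in each class alone and were called, and neither of the 2 that reached it in both was.

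Basophil proteases were found in few members. Mcpt8 was read in 9 barcodes (7.89%, 3.67 to 14.5), with a highest count of 60 UMIs and 46.9% of all its UMIs in that barcode. Prss34 was read in 5 barcodes, with 52.3% of its UMIs in 1. Neither was read in a macrophage-like barcode. Of the 6 tested genes of the basophil list, which also holds Il4, Il13 and the chemokines, 4 reached 50 CPM in mast-like barcodes alone and were called higher, and Ccl3 and Ccl4, at over 50 CPM in both classes, were called lower. At least 2 UMIs of Mcpt8 were found in 8 barcodes of the whole library, and 5 of these were members. For Hdc, 90 of 151 such barcodes were members. Cma1 was read in 49 and Mcpt8 in 9 members, and 61 members held neither, while all held Cpa3, which the choice required. The name mast-like rests, beside the genes that chose the cells, on Hdc, Kit, Gata2 and Ms4a2, which basophils can partly share. Of the other mast-cell markers listed, Srgn and Il1rl1 were higher than in macrophage-like barcodes, and Tpsab1 was read in 6 members. Other markers do not go with the name: Hpgds was lower, at 12.4 against 299 CPM. Fcer1a (7.90 CPM), Mcpt4 (15.8), Tpsb2 (7.90) and Slc18a2 were below 50 CPM. Leaving out the members with Mcpt8 or Prss34 is an alternative whose counts are given with the other settings.

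Genes of granule release and Kit signalling included 2 that were called higher. Rab27b, a small GTPase that docks granules, stood at 115 against 1.24 CPM (92.7-fold) and Stx3, a syntaxin of granule fusion, at 74.5 against 3.05 CPM (24.4-fold). Lyn, the kinase that starts IgE receptor signalling, stood at 46.3 against 170 CPM, short of the limit. Of the 25 genes listed, 8 reached 50 CPM in both classes and none of these was called. Rab27b and Stx3 were the 2 called higher, and reached it in mast-like barcodes alone.

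**Figure D2:**
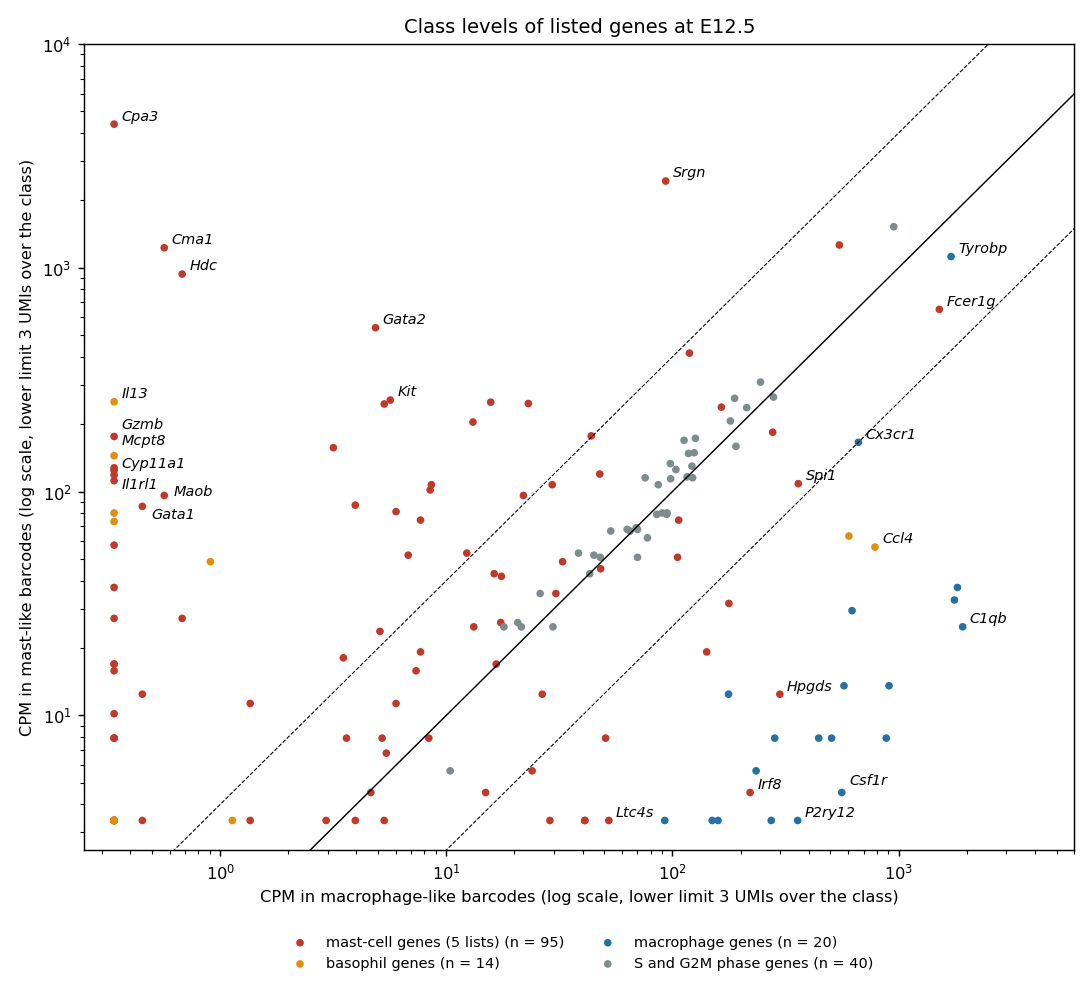
Level in mast-like barcodes (vertical, CPM, log scale) against macrophage-like barcodes (horizontal, CPM, log scale) for genes of the mast-cell, basophil, macrophage and S and G2/M lists, with points below 3 UMIs over a class drawn at that floor. The solid line marks equal levels and the dashed lines a 4-fold difference; Hdc (937 against 0.678 CPM) lies far above, Pf4 (7.90 against 883 CPM) far below, and the cell-cycle genes lie between the dashed lines.

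Several genes outside these lists separated the group from all 3 other classes. Among genes with at least 200 CPM that were read in at least 25% of members, and ranked by the smallest of their ratios to the macrophage-like, endothelial and erythroid classes, the first 15 were Cpa3, Cma1, Hdc, Il13, Cd3g, Slc22a3, Ifitm1, Slc45a3, Nkg7, Ikzf2, Mns1, Ptprcap, Lmo4, Srgn and Gata2. Cpa3, Cma1 and Ifitm1 chose the cells, and the other classes exclude Cpa3, so their place follows from the choice. For Cpa3, Cma1, Hdc and Il13 the smallest ratio was that to the erythroid class. That class held at most 1 UMI of each, so the ratio is their own level over the floor of 3 UMIs. Lmo4, a LIM-domain cofactor, was read in 110 members at 1126 against 37.3 CPM, 30.2-fold (26.6 to 34.3). Ptprcap, a partner of the leukocyte phosphatase CD45, was read in 107 members at 532 against 14.2 CPM. Slc45a3, a sugar transporter, stood at 217 against 1.69 CPM, and Slc22a3, a transporter of monoamines including histamine, at 203 against 0.904 CPM (225-fold, 112 to 529). Nkg7, a protein of cytotoxic granules, was read in 77 members at 230 against 2.26 CPM. Mns1, a filament protein known from meiotic and ciliated cells (331 against 5.20 CPM, 90 members), and the Notch target Hes1 (641 against 29.9 CPM, 91 members) were higher too. Angpt1, the ligand of the endothelial receptor Tie2, stood at 54.2 CPM in mast-like, 0.791 in macrophage-like and 0.488 in endothelial barcodes.

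Cd3g, the gamma chain of the T-cell receptor complex, was read in 58 members (50.9%, 41.3 to 60.4). It held up to 14 UMIs per barcode and stood at 229 CPM (199 to 263) against 1.13 in macrophage-like and 0.0914 in endothelial barcodes, 203-fold (108 to 430) the macrophage-like level. The other chains of the complex were nearly absent from the same barcodes: Cd3e had 1 UMI, Cd3d 5 UMIs in 2 members, and Cd247 none. Cd2 was also at 0, while Cd7, a surface protein of T and NK cells, was read in 52 members at 150 CPM. The genes Cd3d, Cd3e, Cd247, Cd2 and Cd7 were looked up after the value of Cd3g was seen. In the lymphoid list Cd3g and Nkg7 reached 50 CPM, in mast-like barcodes alone, while Gata3 (19.2 CPM) and Il7r (23.7 CPM) were read below the 50 CPM limit.

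Markers of macrophages and brain microglia were low. Beyond the genes that defined the comparison class, Pf4 stood at 7.90 against 883 CPM, Ctss at 13.5 against 908, Trem2 at 7.90 against 506 and Dab2 at 7.90 against 604. P2ry12, a receptor of microglia, had 2 UMIs in mast-like barcodes against 358 CPM, Mrc1, the mannose receptor, 3 UMIs against 273 CPM, and Spp1, osteopontin, 2 UMIs against 615 CPM. Of 20 macrophage genes, all tested, 19 were called lower, 18 of which reached 50 CPM in macrophage-like barcodes alone. Since 5 of these genes chose the comparison class, their difference is fixed by that choice. The summed level of the 20 genes was 1503 CPM in the group (147 to 11169 over barcodes), against 14106 in macrophage-like barcodes. The complement gene C1qa was read in 8 members, and 1 of them held 78.8% of its UMIs. Only 2 members detected 3 or more of the 5 macrophage genes. The adaptor Tyrobp was the gene not called, at 1122 against 1707 CPM. The fractalkine receptor Cx3cr1, known from microglia and from myeloid progenitors, was read in 68 members (59.6%), at 166 against 664 CPM, a 4.00-fold difference at the limit, which was short of it in the members without Mpo (log2 -1.75), in those without Mcpt8 or Prss34 (-1.92) and after thinning (-1.85). The chemokine receptor Ccr2 was 4.81-fold higher, at 103 against 21.4 CPM in 46 members. The anaphylatoxin receptors C3ar1 (7.90 against 201 CPM) and C5ar1 (1 UMI against 143 CPM) and the high-affinity IgG receptor Fcgr1 (3 UMIs against 179 CPM) were lower.

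Traces of other cell types were measured beside these results. Leaving out Cdh5, which the choice used, the other 11 endothelial genes had a summed level of 429 CPM in mast-like, 1522 in macrophage-like and 7491 in endothelial barcodes. The medians per barcode were 361, 339 and 7014 CPM. The macrophage-like sum was carried by barcodes with Cdh5: it was 357 CPM in the 693 without a Cdh5 UMI and 5052 CPM in the 112 with 2 or more. Cldn5, a tight-junction gene, was read in 53 members at 91.5 CPM, against 82.8 in macrophage-like barcodes without Cdh5, 414 in all of them and 2240 in endothelial barcodes. Pecam1, which encodes CD31, the protein used for the enrichment, was read in 39 members at 61.0 CPM against 28.1, 95.8 and 430. No pericyte or mesenchymal gene reached 50 CPM in either class. Choroid plexus transthyretin, Ttr, stood at 141 CPM, with 79.2% of its UMIs in 1 barcode. Against the endothelial class 257 of 3714 genes (6.92%) were called higher and 454 (12.2%) lower. Against the erythroid class 2391 of 2812 (85.0%) were called higher and 42 (1.49%) lower, a count that turns on the haemoglobin UMIs of that class, since 313 were called higher when haemoglobin genes were left out of the totals. The part of these traces in the results was not tested.

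Members were also compared by whether they held Cma1, one of the genes that chose them. Barcodes with Cma1 (49) held 6070 CPM of Cpa3, against 3109 in the 65 without it. Hdc stood at 1193 against 744 CPM, Srgn at 2898 against 2094, Gata2 at 698 against 420 and Kit at 299 against 224, all in the same direction and below 4-fold. Between these arms 15 of 3047 genes (0.492%) were called higher with Cma1, a count that includes Cma1 itself, and 17 (0.558%) lower. Without the 1 member high in haemoglobin, 8 were called higher and 17 lower. Tpsab1 was read only beside Cma1 (260 against 0 CPM, or 74.7 without its top barcode), and 25 of the 39 members with Cyp11a1 also held Cma1 (212 against 63.4 CPM). Granzyme gene Gzmb stood at 312 against 73.4 CPM, but at 121 without the barcode that held most of its UMIs, and it was read in 14 of 49 against 12 of 65 members. In the other direction, Mpo stood at 110 against 658 CPM and was read in 8 against 18 members. Mcpt8 stood at 28.8 against 232 CPM, or 114 without its top barcode, and was read in 5 against 4 members. Ccl5 was read in 8 members, none with Cma1, and stood at 0 against 466 CPM, or 196 without its top barcode. Haemoglobin genes were high in the arm with Cma1, at 18670 CPM summed, but 1 barcode with 40.7% haemoglobin carried this, and without it the sum was 1238, against 1134 CPM in the arm without Cma1.

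**Figure D3:**
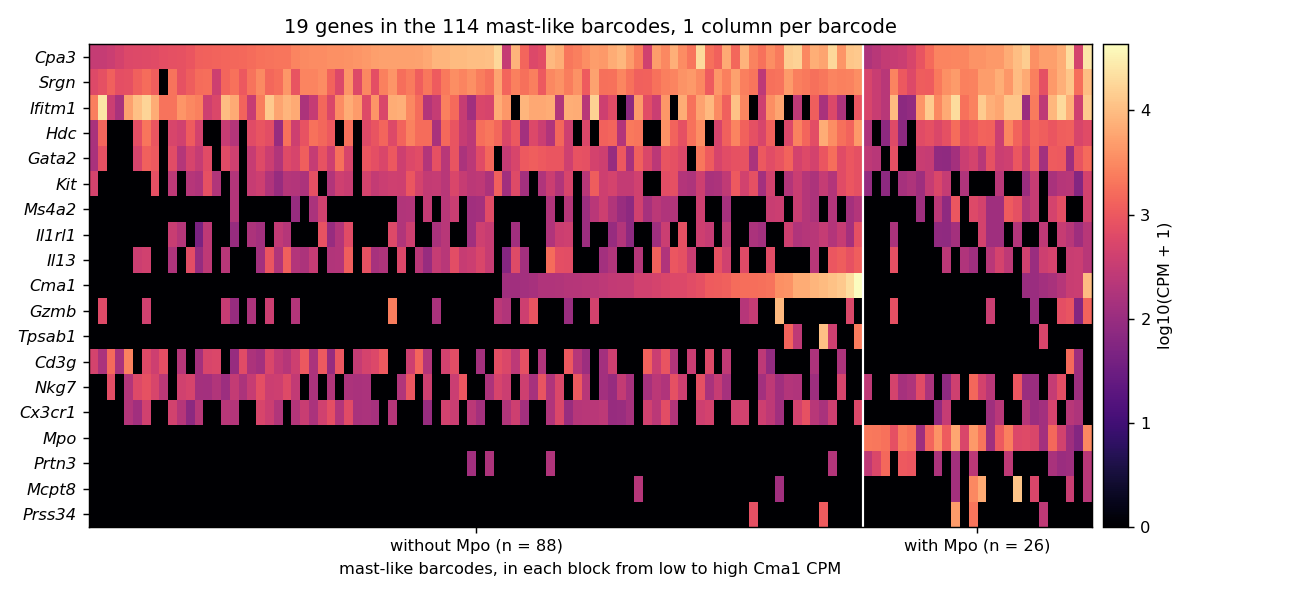
Level of 19 genes (rows) in each of the 114 mast-like barcodes (columns), as log10(CPM + 1), in a block of 88 barcodes without and 26 with a UMI of Mpo, each ordered from low to high Cma1. Hdc has a UMI in 73 of 88 columns on the left and 24 of 26 on the right, Cma1 in 41 and 8, and Cd3g in 56 and 2.

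Mpo, the myeloperoxidase of neutrophil and monocyte precursors, was read in 26 members (22.8%, 15.5 to 31.6) at 422 CPM, and these were compared with the 88 members without it, a split chosen after the values were seen. Members with Mpo were deeper, with a median of 8937.5 UMIs against 6342.5, so some shares are also given after thinning to 2000 UMIs. Counts of barcodes are from unthinned barcodes and keep this difference in depth. Of 3119 genes tested, 26 (0.834%) were called higher with Mpo, a count that includes Mpo itself, and 32 (1.03%) lower. The lower count includes haemoglobin genes of the 1 member named above and was 26 without it. Another azurophil granule gene, Prtn3, stood at 268 against 6.22 CPM and was read in 13 of 26 against 4 of 88 barcodes (23.1% against 0 after thinning). Of its 65 UMIs in members with Mpo, 54 came from 5 barcodes near the lower limit of Cpa3. These 5 held 2 to 6 UMIs of Cpa3, 0 to 2 of Hdc, 0 to 3 of Gata2 and none of Ms4a2, and without them Prtn3 stood at 60.3 CPM in 8 of 21 barcodes. Elane and S100a8, further neutrophil genes, had 1 UMI each over all members. Mpo, Prtn3 and Ccr2 were the genes of the neutrophil and monocyte list that reached 50 CPM, in mast-like barcodes alone. In the whole library 148 barcodes held 2 or more UMIs of Mpo, and 21 of these were members. The basophil protease Mcpt8 stood at 520 against 3.11 CPM, and at 279 CPM with Mpo when its top barcode was left out. It was read in 7 of 26 against 2 of 88 barcodes. Ramp1, a receptor partner for the peptide CGRP, was read in 16 against 11 barcodes (30.8% against 1.14% after thinning), and Ccl9 stood at 417 against 23.3 CPM, or 294 with Mpo without its top barcode. Anxa1 stood at 310 against 20.2 CPM, or 145 without its top barcode, and was read in 7 of 26 against 11 of 88 barcodes.

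Genes with lower levels beside Mpo included several of the group's own. Cd3g was read in 2 of 26 members with Mpo (7.69%, 0.946 to 25.1) and in 56 of 88 without it (63.6%, 52.7 to 73.6), at 66.1 against 291 CPM, and in 3.85% against 36.4% after thinning. The chemokine receptor Ccr2 was read in 3 against 43 barcodes. Cx3cr1 was read in 10 against 58 barcodes, at 82.6 against 197 CPM, and in 0 against 25% after thinning. Cma1 stood at 248 against 1597 CPM, or 1256 without Mpo when its top barcode was left out. It was read in 8 of 26 against 41 of 88 barcodes (15.4% against 30.7% after thinning). Of its 60 UMIs in members with Mpo, 45 came from 1 barcode. Hes1 stood at 235 against 794 CPM. Cpa3, which the choice requires in both sets, stood at 4246 against 4436 CPM. Hdc stood at 756 against 1005 CPM and Srgn at 3370 against 2090. Ms4a2 stood at 206 against 93.2 CPM, and was read in 15.4% against 15.9% of thinned barcodes. After thinning, Kit was read in 19.2% against 43.2% and Gata2 in 34.6% against 70.5% of barcodes. Without thinning, Gata2 stood at 421 against 584 CPM and was read in 23 of 26 against 79 of 88 members. Kit stood at 149 against 297 CPM in 17 of 26 against 71 of 88. Without the 5 barcodes that held most Prtn3, and without thinning, Gata2 was at 532 against 584 CPM, in 21 of 21 against 79 of 88 members. Hdc was then at 982 against 1005 CPM. Kit was at 165 against 297 CPM in 13 of 21 against 71 of 88 members, and Cd3g was read in 2 of 21 against 56 of 88. Whether the Mpo set is another cell type or a stage of the same one was not tested.

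**Figure D4:**
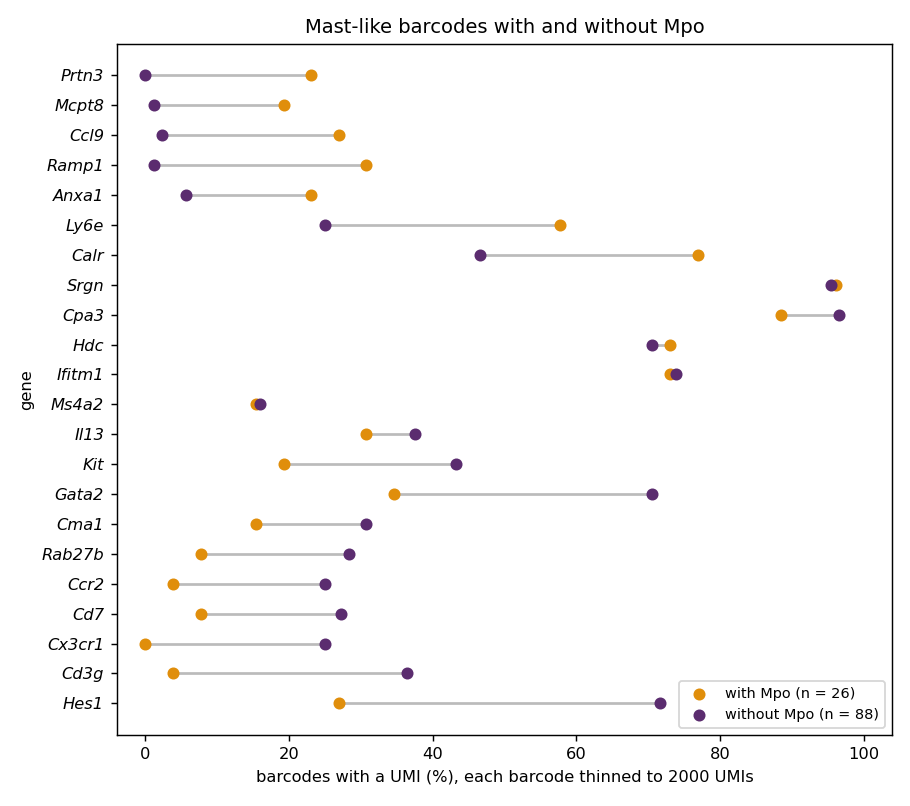
Percent of barcodes with a UMI after thinning to 2000 UMIs (horizontal) for 22 genes (rows), in the 26 mast-like barcodes with Mpo (orange) and the 88 without (purple). Srgn (96.2% and 95.5%) and Hdc (73.1% and 70.5%) nearly coincide, while Cd3g (3.85% and 36.4%) and Hes1 (26.9% and 71.6%) lie far to the right in the barcodes without Mpo.

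Cell-cycle genes were at about the level of the macrophage-like and endothelial classes. The summed S-phase list stood at 1872 CPM in mast-like, 1604 in macrophage-like and 1445 in endothelial barcodes, and the G2/M list at 3794, 3082 and 3164. In erythroid barcodes, where haemoglobin held a median of 84.4% of UMIs, the lists stood at 208 and 414 CPM. After thinning, Top2a, the topoisomerase of dividing cells, had a UMI in 22.8% of mast-like barcodes (15.5 to 31.6), 21.3% of macrophage-like and 21.1% of endothelial ones. The proliferation antigen gene Mki67 had one in 9.65% (4.92 to 16.6), 13.01% and 8.45%. None of 16 tested S-phase or 17 tested G2/M genes was called in either direction against the macrophage-like class. Of these, 13 S-phase and 17 G2/M genes reached 50 CPM in both classes. Over all genes, 7 of 2239 such genes were called higher and 29 lower, so the lack of calls is close to the background. Xist without Y-linked genes was read in 59 members and Y-linked genes without Xist in 23, a share of 72.0% (60.9 to 81.3) for the former, against 65.3% in macrophage-like and 55.2% in endothelial barcodes, so the group held barcodes of both kinds. Another 3 members held both and 29 neither.

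The members just inside and outside the limits are given as a description. The 6 members with exactly 2 UMIs of Cpa3 held 353 CPM of Hdc, 353 of Gata2, 88.2 of Kit and none of Cma1. Another 9 barcodes with 1 UMI of Cpa3 also held Cma1 or Ifitm1 and no Cdh5, and had 516 CPM of Hdc and 144 of Gata2. Without Cma1, Ifitm1 and Cdh5, 27 barcodes with at least 2 UMIs of Cpa3 held 246 CPM of Hdc and 297 of Gata2. A further 39 barcodes met the other conditions but held Cdh5, and these had 607 CPM of Hdc and 919 of Cldn5. Of these, the 22 with a single Cdh5 UMI held 865 CPM of Hdc and 283 of Cldn5, and the 11 with 5 or more held 1562 CPM of Cldn5 at a median of 17274 UMIs, above the median of every class.

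Barcodes that met the same rule were found mainly at E12.5 among the libraries read here. At E9.5, 1 of 9897 barcodes met it (0.0101%). None of 5277 barcodes at postnatal day 8 and none of 3671 in the adult did. Taking 3 barcodes as the most that a count of 0 allows, their shares could be up to 0.0569% and 0.0817%. Over all deposited barcodes these libraries were shallower, with medians of 2773.5 UMIs at E9.5, 6065 at day 8 and 3674.5 in the adult against 9108 at E12.5. The shares use only barcodes that passed the filter: 9897 of 17176 at E9.5, 5277 of 7305 at day 8 and 3671 of 5552 in the adult. Macrophage-like barcodes were also fewer in these libraries, at 198, 21 and 48 in the same order, against 930 at E12.5. Each age was 1 library, so age and library cannot be told apart. Barcode sequences shared with the E12.5 library numbered 3 at E9.5, 50 at E16.5, 3 at day 8 and 2 in the adult, and none belonged to a member. The E16.5 library was not analysed here for genes.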

How the data were processed

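Gene-by-barcode counts of UMIs were used as deposited by the authors, who made them with Cell Ranger on the mm10 mouse genome, per the submitters' processing notes. The single E12.5 library (CD31-enriched embryonic brain, 10x 3′ v2) was analysed, and 3 other libraries were read for the same rule. The E12.5 library held 95169465 UMIs, with 4070 as the lowest and 9108 as the median count per barcode. Barcodes with at least 200 genes and at most 10% mitochondrial UMIs were kept, and no doublet caller was run. Instead, Cdh5 was required to be 0 and members with macrophage genes were left out in an alternative. No clustering was done: classes follow rules on marker counts. UMIs were summed per class and scaled to CPM. Poisson and Clopper-Pearson 95% intervals were computed with scipy 1.17.1 in Python 3.11.15, and the arithmetic was checked on simulated counts. With 1 library there was no test. A class with fewer than 3 UMIs was set to a floor of 3 UMIs when genes were called. With 0 UMIs the fold is a bound, while the ratio of Gzmb to 1 macrophage-like UMI is given as counted (520 with the floor). Members and gene lists were chosen with earlier results of these data known. Genes were named from 23 gene lists, from the 25 highest and 15 lowest ratios to macrophage-like barcodes (at least 200 CPM and a UMI in 25% of the higher class), from the 15 with the largest smallest ratio over 3 classes under the same limits, and from the 10 largest each way between members with and without Cma1. The split by Mpo and its genes, and the further T-cell genes, were chosen after values were seen. Gene positions and start-site sequences are from RefSeq GRCm38.p6. 3′ counting gives 1 UMI per molecule, so CPM does not depend on transcript length, but near-identical genes may share reads. The result for 1 gene of the signalling list is not reported here.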

Additional observations from a re-analysis of the deposited data

How the results depend on the processing

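The number of members was 99 to 153 under other limits on Cpa3, Cdh5, mitochondrial share, genes and macrophage genes, and 49 when Cma1 alone was asked for. Genes higher than in macrophage-like barcodes numbered 132, and 123 to 157 under other macrophage rules, averaging, thinning or left-out barcodes, but 74 with a limit of 100 CPM and 243 with 20 CPM. Lower genes numbered 277, and 153 and 496 under those limits. Against endothelial barcodes 257 became 145 at 100 CPM. Against erythroid barcodes 2391 became 1264 at 100 CPM and 313 without haemoglobin genes. Thinning to 2000 UMIs gave summed levels of 1689 CPM for S and 3294 for G2/M genes. Thinned to 1000 UMIs in place of 2000, shares were 45.6% for Hdc, 25.4% for Kit, 44.7% for Gata2 and 20.2% for Il13, since fewer UMIs read fewer barcodes. Leaving out members with Mpo, an alternative chosen after seeing the data like those on Mcpt8 or Prss34, a single Cdh5 UMI and the top barcode, gave log2 -0.82 for Mpo, which is only the floor of 3 UMIs since Mpo is then 0 by construction, and log2 -1.08 for Prtn3, from 4 UMIs. Without the member above 20% haemoglobin, also added later, 8 in place of 15 genes were higher with Cma1. Of 219 genes, 111 were past 4-fold and 105 to 111 stayed so in each setting. Fold sizes were less stable: 101 of the 219 left their main counting interval after thinning to 2000 UMIs. Another 62 did so, and 2 reversed, without members with Mpo, and 45 did so with the mean of each barcode's CPM. In the other settings 11 to 25 did. Cldn5, Cx3cr1, Emcn, Esam, Fdx1, Flt1, Kdr, Ramp2, Osm, Mpo, Prtn3 and Ttr each fell short in at least 1. The limits of 4-fold and 50 CPM were chosen. The depth of 885706 UMIs in 114 barcodes sets the width of the counting intervals. No paired analysis was possible because there was 1 library and no test.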

Other observations

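Immediate early genes, which rise when tissue is digested as well as when cells are activated, were measured in the same barcodes. Fos stood at 563 CPM in mast-like and 1650 in macrophage-like barcodes, Ier2 at 841 and 518, Junb at 516 and 485, and Nr4a1 at 224 and 70.8. Atf3 was read at 4.52 against 270 CPM. Of the 13 tested genes of this list, none was called higher and 2 lower. Their part in the levels of the cytokine genes was not tested.

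Of the blood progenitor genes, 7 reached 50 CPM in mast-like barcodes alone, and Ifitm1 (which chose the cells), Kit, Hmga2 and Angpt1 among them were called higher than in macrophage-like barcodes. Of 3 that reached it in macrophage-like barcodes alone Ifitm3 was called lower, and none of 5 that reached it in both was called. Hmga2, a chromatin protein of fetal cells, stood at 123 CPM in mast-like, 15.6 in macrophage-like and 45.1 in endothelial barcodes, and at 60.3 CPM beside Cma1 against 171 without it. Cd34, a surface protein of progenitors and endothelium, stood at 237, 185 and 880 CPM. Of the 2 tested megakaryocyte genes, the platelet glycoprotein gene Gp1bb stood at 79.0 against 2.49 CPM and was read in 38 members, and Pf4, which macrophages also express, was lower. Of their companions, Gp1ba was at 0 and Gp9 had 2 UMIs.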
